A study of Mus musculus with 10 samples.

Results

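Chemokines of the CC family and their receptors were followed across the cells of E0771 tumors, grown from a mouse breast cancer cell line. The 9 genes were the ligands Ccl2, Ccl7, Ccl8, Ccl5, Ccl17 and Ccl22 and the receptors Ccr2, Ccr1 and Ccr7. They were taken from a list of genes drawn up for this purpose, without a threshold on their values, and they are 9 of the 31053 genes counted. Ccl2 held 27388 of their unique molecular identifiers (UMIs, each standing for 1 captured RNA molecule), Ccl5 3226, Ccl8 2004, Ccl7 1196, Ccr2 425, Ccr1 234, Ccr7 179, Ccl22 25 and Ccl17 5.

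CC chemokines are small secreted proteins that guide leukocytes along a gradient. Ccl2 and Ccl7 bind Ccr2 and draw monocytes out of the blood, where tumors can turn them into macrophages. Ccl7 and Ccl5 also bind Ccr1, and mouse Ccl8 binds Ccr8. Ccl17 and Ccl22 bind Ccr4 and are known for attracting regulatory T cells. Ccr7 binds Ccl19 and Ccl21 and guides mature dendritic cells, naive T cells and B cells to lymph nodes.

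The KO mice were made by crossing VE-Cadherin-Cre mice with AGO1 flox/flox mice, both on C57BL/6, so that Ago1, which encodes a small-RNA-binding protein, is deleted in endothelial cells (EC-AGO1-KO). The controls were WT littermates, whose alleles are not described further. All mice were 16-week-old females that received E0771 cells in the fourth mammary fat pad, and tumors were taken at day 21. There were 5 WT libraries from 5 tumors and 5 KO libraries from 7 tumors, since KO 2+3 and KO 5+6 each pooled small tumors of different mice. Batch 1 held 1 WT and 1 KO library, batch 2 held 4 of each, and the batches were run on different sequencers.

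After filtering, 65298 cells remained, 2162 in batch 1 and 63136 in batch 2. The kept UMIs per library ranged from 6064580 to 8593422, but the median per cell was 3862 to 4049 in batch 1 and 595 to 1142 in batch 2. Actb took 1.99% to 2.27% of UMIs in batch 1 and 8.77% to 17.0% in batch 2. Of 64765 distinct barcodes, 532 occurred in more than 1 library. Ago1 could not be checked in its target cells, because it had 0 UMIs in 68 WT and in 128 KO endothelial-like cells, which allows shares of cells with a UMI of up to 4.41% and 2.34%. In whole libraries, where the other cells keep Ago1, it stood at 4.97 to 7.21 CPM (UMIs of the gene per 1000000 UMIs) in WT and 4.97 to 7.96 CPM in KO, and 3′ reads may lie outside the deleted part.

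All cells were clustered together, immune cells again within each batch, and clusters were named from marker lists. The classes held 55169 tumor-like, 1868 macrophage-like, 1428 T-like, 876 fibroblast-like, 656 dendritic-like, 463 monocyte-like, 448 epithelial-like, 436 B-like and 196 endothelial-like cells, and 3758 cells of mixed clusters stayed unnamed. The lists that had named the clusters were then counted by class, which describes the classes and cannot check their names. In T-like cells 14 of 14 T markers were higher than in any other class in both batches. In macrophage-like cells 11 of 13 macrophage markers were in batch 1 and 12 of 13 in batch 2. The counts of batch 1 were 4 of 8 in tumor-like, 8 of 11 in monocyte-like and 13 of 22 in dendritic-like cells. Those of batch 2 were 6 of 8, 8 of 11 and 18 of 22. Immune cells of batch 2 also carried RNA of tumor markers. The 8 tumor markers summed to 5940 CPM in T-like, 7470 CPM in macrophage-like, 11394 CPM in dendritic-like, 16165 CPM in monocyte-like and 16536 CPM in B-like cells of batch 2, against 20411 CPM in tumor-like cells. In batch 1 they summed to 513 CPM in B-like up to 2143 CPM in monocyte-like cells. The macrophage markers summed to 21964 CPM in macrophage-like cells of batch 1 and 3627 CPM in those of batch 2. The 1340 macrophage-like cells of batch 2 were 1 cluster (immune 0), whose 10 leading genes held the mature dendritic marker Marcks and none of the macrophage list, and the 62 dendritic-like cells of batch 1 were 1 cluster (immune 7) led by H2-Aa with Cd74, a gene of the B list. Values in both are therefore those of the numbered clusters. Free RNA, read from barcodes with at most 50 UMIs, held Ccl2 at 109 to 253 CPM in the 10 libraries, and Ccl5 at 98.8 to 142 CPM in batch 1 and 2.74 to 30.3 CPM in batch 2. Differences between the batches in depth, tumor marker RNA and free RNA run alongside the values below, and their part in the results was not tested. Class levels are CPM, with a gene's UMIs taken over all UMIs but those of Actb in the cells of the class in 1 library. The classes were built from the same cells, so class against class is a description.

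Each of the 9 genes had a class in which its level, averaged over the libraries, was highest. For Ccl7 and Ccl8 this was the macrophage-like class, for Ccl5, Ccl22 and Ccr7 the dendritic-like class and for Ccr2 and Ccr1 the monocyte-like class. Ccl2 stood close in 2 classes. Its mean was 892 CPM in fibroblast-like cells over the 9 libraries with at least 10 such cells, and 836 CPM in macrophage-like cells over 10 libraries, but with libraries pooled it was 829 CPM in fibroblast-like and 1124 CPM in macrophage-like cells. In batch 1 it was highest in macrophage-like cells. Ccl17 had 5 UMIs in all, too few to place.

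**Figure D1:**
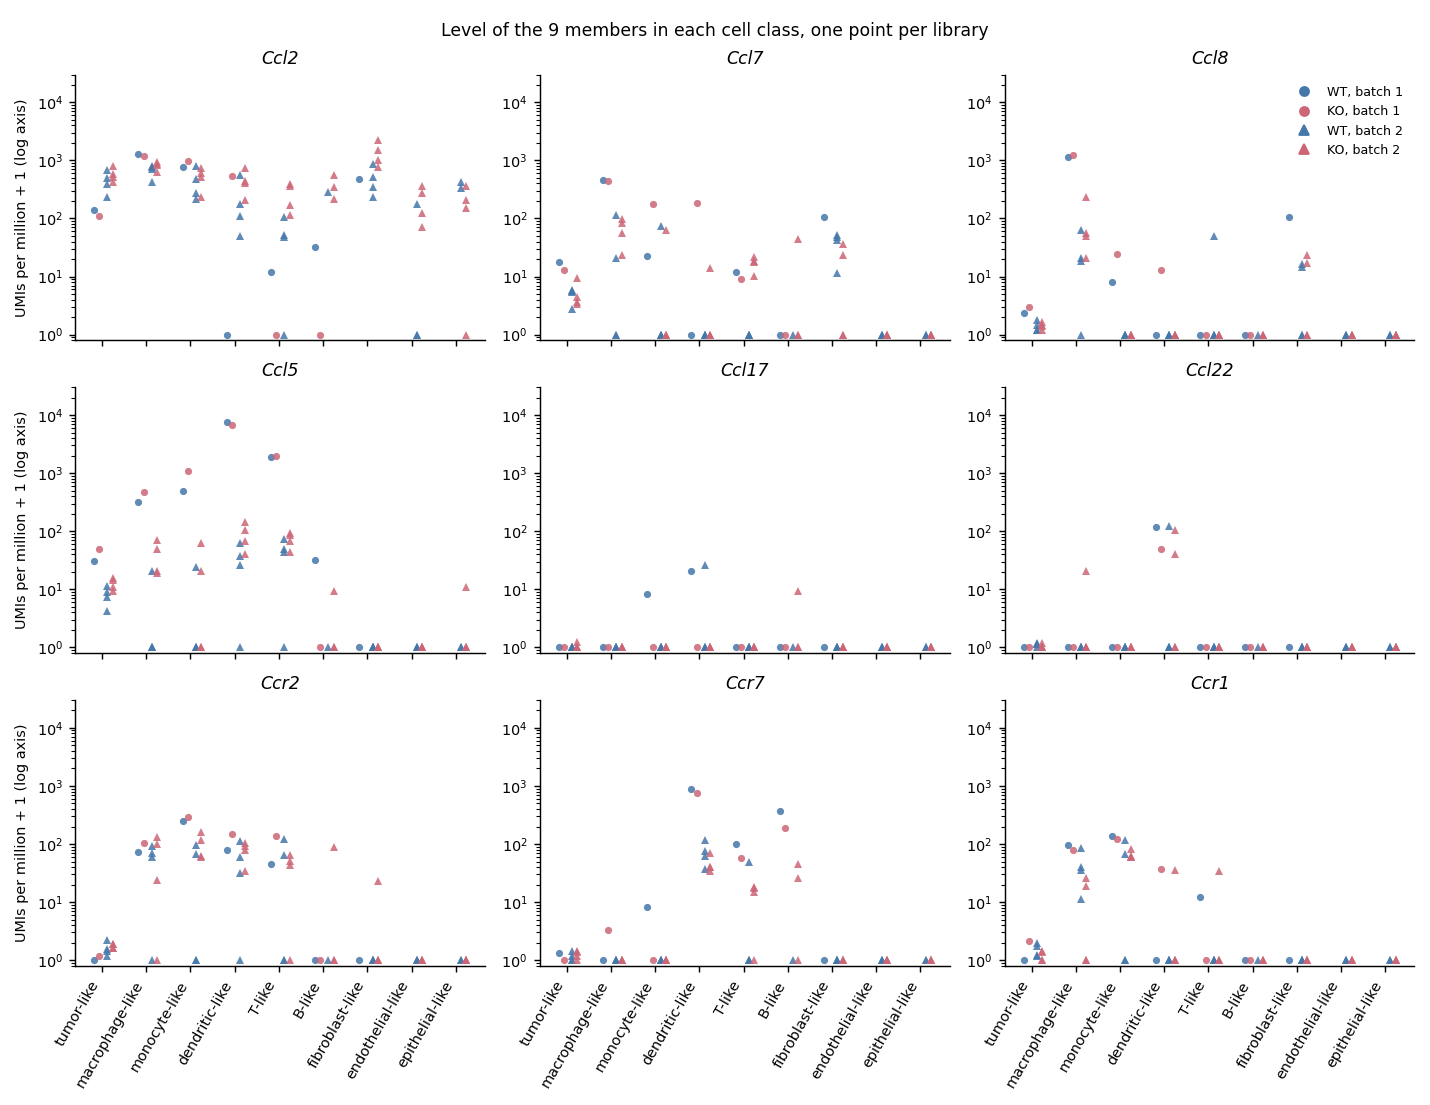
Level of each of the 9 genes in each cell class, in CPM plus 1 on a log axis, 1 point per library with at least 10 cells of the class, with WT in blue, KO in red, batch 1 as circles and batch 2 as triangles. Ccl2 is present in most classes, while Ccl8 is high in macrophage-like cells and Ccl5 and Ccr7 in dendritic-like cells of batch 1.

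Ccl2 encodes the main monocyte chemoattractant. In tumor-like cells its level in batch 1 was 138 in WT and 110 CPM in KO. In batch 2 it was 385, 681, 488 and 230 CPM in WT 1, WT 3, WT 4 and WT 5, and 515, 808, 428 and 586 CPM in KO 1, KO 2+3, KO 4 and KO 5+6. All 8 libraries of batch 2 lay above both of batch 1, and pooled over libraries the level was 3.97 times that of batch 1. In macrophage-like cells the order was the opposite, with 1281 and 1183 CPM in WT and KO of batch 1, and 430 to 786 CPM in WT and 618 to 919 CPM in KO of batch 2. T-like and B-like cells had 1 UMI each in batch 1 (4.65 and 17.1 CPM pooled), and 158 and 299 CPM in batch 2, within or just above the range of free RNA.

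Because tumor-like cells were so many, they held 89.0% of the Ccl2 UMIs of batch 2, with 85.5% of the cells. In batch 1 they held 37.2% with 54.1% of the cells, whereas macrophage-like cells held 52.6% with 24.4% of the cells. The UMIs were unevenly spread over cells. In the 703 tumor-like cells of WT in batch 1, the tenth of cells with most Ccl2 held 69.4% of its UMIs, and in WT 1 this share was 90.5%, at a lower depth per cell.

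Cells were thinned to 500 UMIs each to compare detection at 1 depth. In batch 1, Ccl2 was then found in 31.8% of macrophage-like, 17.2% of monocyte-like and 4.38% of tumor-like cells, but in 0.93% of T-like cells and in 0 of 64 B-like cells, which allows a share of up to 4.69%. Unthinned, the shares were 57.8%, 29.9%, 33.7% and 0.89%, at median depths of 2968, 1692, 10626 and 1274 UMIs. The 95% Wilson interval of the thinned share was 27.9% to 35.9% in macrophage-like cells and did not overlap that of T-like cells (0.16% to 5.06%, 1 cell with Ccl2), a class with little Ccl2 here, whereas that of tumor-like cells (3.31% to 5.78%) did. In batch 2, the thinned shares were 22.5% in macrophage-like, 18.3% in fibroblast-like, 14.4% in monocyte-like, 14.1% in B-like, 12.0% in tumor-like and 2.91% in T-like cells. The interval of the B-like share in batch 2 (9.97% to 19.7%, 28 of 198 cells) held the tumor-like share. Unthinned, the order was reversed, with 16.5% in tumor-like and 10.8% in B-like cells. B-like cells had no detected Ccl2 at 500 UMIs in batch 1. In tumor-like cells, 98 of batch 1 and 16449 of batch 2 were too shallow to be thinned. In macrophage-like cells these were 18 and 1055, and in B-like cells 2 and 172.

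**Figure D2:**
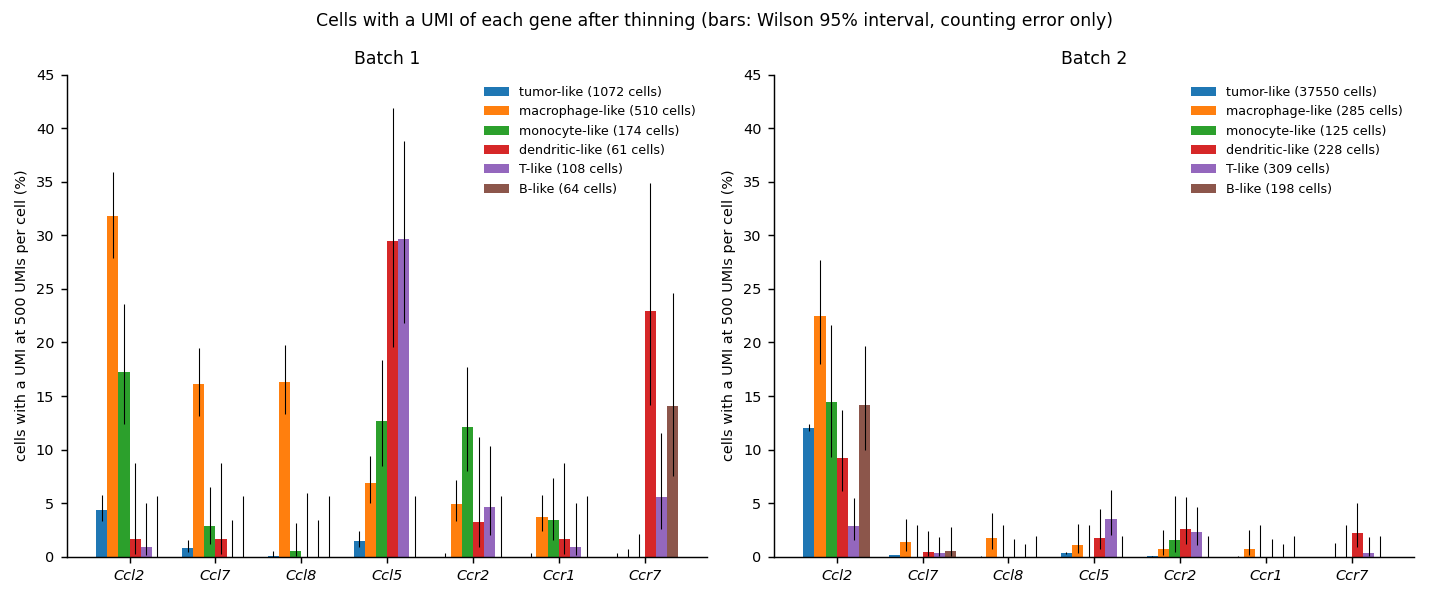
Share of cells with a UMI (percent) of 7 genes in 6 classes, by batch, after each cell was thinned to 500 UMIs, with 95% Wilson intervals for counting error as thin lines. Ccl2 is found in 31.8% of macrophage-like and 4.38% of tumor-like cells of batch 1, and in 22.5% and 12.0% of those of batch 2.

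In fibroblast-like cells of batch 2, Ccl2 stood at 508, 851, 233 and 341 CPM in WT 1, WT 3, WT 4 and WT 5, and at 772, 2279, 1527 and 1030 CPM in KO 1, KO 2+3, KO 4 and KO 5+6. The groups overlapped, since WT 3 exceeded KO 1. This contrast was picked after its values had been seen. WT averaged 483 ± 270 CPM and KO 1402 ± 664 CPM (SD, n = 4 libraries each), a 2.90-fold difference of means. The difference in mean log2(CPM + 1) was 1.58. That difference did not pass a two-sided exact permutation test (p = 0.0571, where 0.0286 is the smallest possible, and 0.143 after Benjamini-Hochberg adjustment over 5 such comparisons). In batch 1, 15 WT cells held 41 Ccl2 UMIs (483 CPM), and the 9 KO cells held 8 (116 CPM), the other way round. The class also carried pericyte markers.

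Ccl2 lies at chr11:82035571-82037453 on the plus strand (mm10, GENCODE vM21). The gene Gm17268, annotated as protein-coding, runs on the opposite strand at chr11:82028224-82038562 and spans all 1883 bases of Ccl2, with no shared exonic base. Among 8830 genes, its pattern over 78 class-by-library sums was the most like that of Ccl2 (Pearson r = 0.86, a description over sums that share libraries), followed by Zeb2 and Mitf, each at 0.69. In whole libraries there were 0.43 to 0.46 Gm17268 UMIs per Ccl2 UMI in batch 1, and 1.07 to 1.36 in the 8 libraries of batch 2. Of the tumor-like cells of batch 2 with a Ccl2 UMI, 73.1% also had Gm17268, against 6.09% of the others. In batch 1 the shares were 35.5% and 5.67%. Whether some Gm17268 UMIs come from Ccl2 transcripts was not tested.

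**Figure D3:**
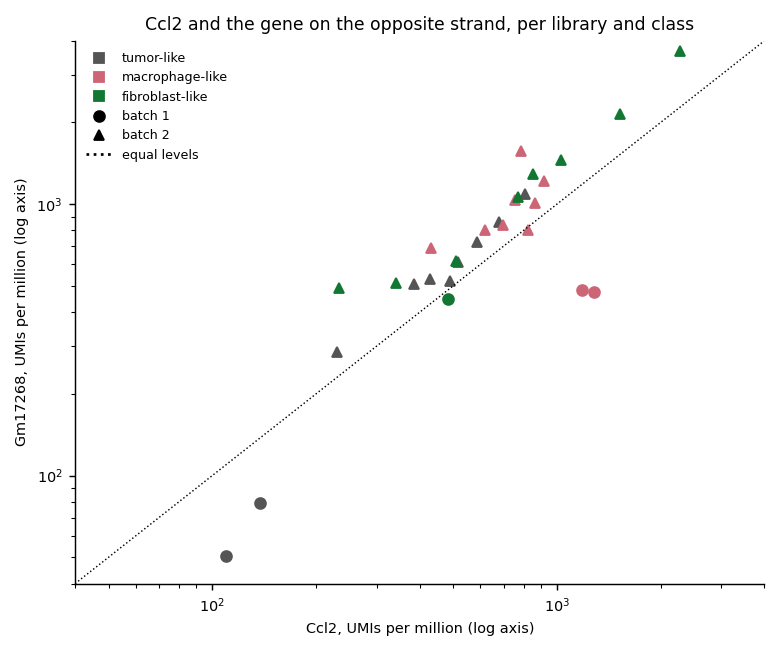
Ccl2 (horizontal) and Gm17268 (vertical) in CPM on log axes, 1 point per library for tumor-like, macrophage-like and fibroblast-like cells, with batch 1 as circles, batch 2 as triangles and equal levels as a dotted line. All points of batch 1 lie below the line, and nearly all of batch 2 lie above it.

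Ccl7 and Ccl8 lie downstream of Ccl2 on the same strand, at chr11:82045712-82047525 and chr11:82115185-82116799, separated by 8258 bases from Ccl2 to Ccl7 and 67659 bases from Ccl7 to Ccl8. Ccl7, a further Ccr2 ligand, stood at 464 in WT and 433 CPM in KO macrophage-like cells of batch 1. In batch 2 it stood at 0, 19.6, 0 and 113 CPM in the WT libraries and 22.9, 82.3, 54.9 and 97.7 CPM in the KO libraries, on at most 11 UMIs each. Ccl8 stood at 1135 CPM (95% exact Poisson interval 1060 to 1214) in WT and 1227 CPM (1154 to 1304) in KO macrophage-like cells of batch 1, so the counting intervals overlapped. In batch 2 it ranged from 0 to 61.5 CPM in WT and 19.5 to 229 CPM in KO, 28 UMIs in all. Pooled over libraries, the macrophage-like level in batch 1 was 7.06 times that of batch 2 for Ccl7 and 20.7 times for Ccl8, while for Ccl2 it was 1.58 times. Macrophage-like cells held 76.2% of the Ccl7 UMIs and 98.1% of the Ccl8 UMIs of batch 1.

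Within the macrophage-like cells of batch 1 the ligands were not spread evenly. A cluster of 73 cells (immune 5) stood out among macrophage-like cells by Npl, Cbr2, Cd163, Ednrb, F13a1, Saa3, Gas6 and Gja1. Cd163 marks scavenging tissue macrophages, while F13a1 is in the monocyte list used here. The cluster held Ccl8 at 3734 CPM, with 3786 in WT and 3687 CPM in KO. It also held Ccl2 at 1479 CPM and Ccl7 at 648 CPM, and its Ccr2 level was 23.0 CPM. A cluster of 109 cells (immune 4) stood out among macrophage-like cells by the hemoglobin genes Hbb-bs, Hba-a1, Hba-a2 and Hbb-bt. Mmp12, Cxcl2, Pdpn and Cxcl1 stood out there too. Against all other clusters of batch 1, its 10 leading genes held Mmp12 and Cxcl2 but no hemoglobin gene. Among the 10 immune clusters of batch 1 with at least 40 cells it had the highest Ccl2 level, at 1651 CPM. Its Ccl8 level was 714 CPM and its Ccr2 level 64.2 CPM. A cluster of 145 cells (immune 0) in which the monocyte genes Ly6c2 and Plac8 stood out among macrophage-like cells had Ccl8 at 156 CPM and Ccr2 at 274 CPM. Of the other macrophage-like clusters, immune 2 and immune 8 had Ccl8 at 816 and 496 CPM and Ccr2 at 67.4 and 57.0 CPM. A smaller one of 28 cells (immune 10), led by histone genes, had Ccl2 at 1513 in WT and 1930 CPM in KO. Ccl8 in WT and KO was 366 and 1135 CPM in immune 2, 906 and 137 CPM in immune 8, and 893 and 265 CPM in immune 10. It was 677 and 758 CPM in immune 4, and 54.9 and 246 CPM in immune 0. In 510 cells thinned to 500 UMIs, Ccl7 was found in 27.2% of those with Ccl2 and 10.9% of those without, and Ccl8 in 23.5% and 12.9%. Ccl8 and Ccr2 were found together in 1 cell, where 4.07 would be expected if they were independent.

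**Figure D4:**
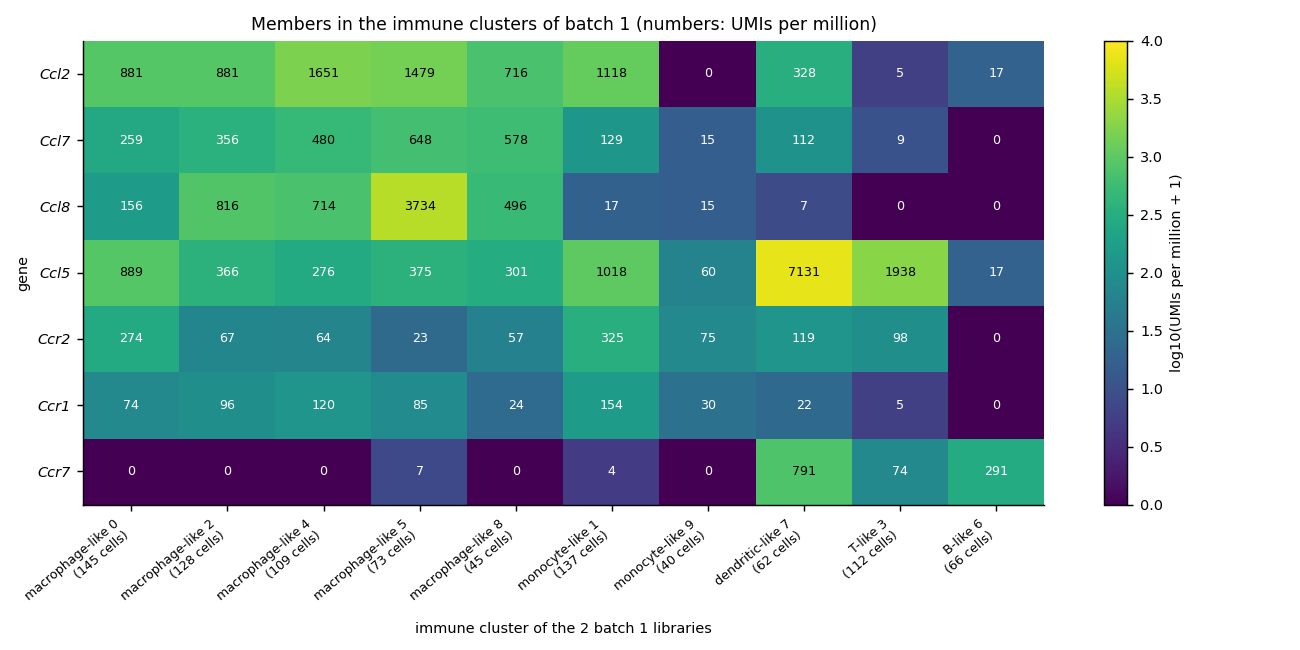
Levels of 7 of the genes (rows) in 10 immune clusters of batch 1 (columns, with cell numbers), printed in CPM pooled over the WT and KO library, with color on a log10 scale after 1 is added. Ccl8 peaks at 3734 in the cluster of 73 macrophage-like cells, Ccr2 at 325 in the larger monocyte-like cluster, and Ccl5 and Ccr7 at 7131 and 791 in the dendritic-like cluster.

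The pattern most like that of Ccl8 over the class-by-library sums was that of Pf4 (r = 0.81), followed by the complement genes C1qb and C1qa (0.78 and 0.76). For Ccl7 it was Ccl8 (0.70), then C1qb (0.65) and Lpl (0.64).

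Ccl5, a ligand of Ccr1 made by activated T cells and antigen-presenting cells, lies at chr11:83525778-83530518 on the minus strand. In batch 1 it stood at 7696 in WT and 6778 CPM in KO dendritic-like cells, and at 1919 and 1951 CPM in T-like cells. Monocyte-like cells had 488 in WT and 1076 CPM in KO, and macrophage-like cells 319 CPM (280 to 362) and 473 CPM (428 to 521), where the Poisson intervals do not overlap but rest on 1 library a group. At 500 UMIs, 29.6% of T-like and 29.5% of dendritic-like cells of batch 1 had Ccl5, against 1.49% of tumor-like cells (42.0%, 43.5% and 5.73% unthinned). In batch 2 the pooled level in T-like cells was 69.7 CPM, 27.8-fold below batch 1. The T markers summed to 6859 CPM in T-like cells of batch 1 and 3865 CPM in those of batch 2. The dendritic-like cells of batch 1 (immune 7) were named mature with a marker score of 0.91, but scored 0.66 for conventional dendritic cells. They also had Ccr2 at 119 CPM on 16 UMIs, and whether the cluster holds both kinds was not tested. They had Ccl5 at 7131 CPM pooled, against 236 CPM on 21 UMIs in the mature dendritic-like cells of batch 2. With conventional dendritic-like cells, which had no Ccl5 UMI, the class in batch 2 stood at 75.6 CPM.

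In tumor-like cells Ccl5 was low, at 29.2 in WT and 48.3 CPM in KO of batch 1. In batch 2 it was 8.0, 10.3, 6.4 and 3.2 CPM in WT 1, WT 3, WT 4 and WT 5, and 13.6, 9.9, 8.4 and 14.5 CPM in KO 1, KO 2+3, KO 4 and KO 5+6. The groups overlapped, with WT 3 above KO 2+3 and KO 4. Free RNA held more Ccl5 than the tumor-like cells in 9 of the 10 libraries, all but WT 5. It was estimated at only 5.93% (KO 5+6) to 45.2% (KO 2+3) of tumor-like UMIs. Its own level is therefore not the background expected in these cells, and its part in their Ccl5 was not tested. A tumor-like cluster of 5604 cells in batch 2 was led by the interferon-induced genes Usp18, Rsad2 and Ifih1. There Ccl5 had a median of 27.3 CPM over the 8 libraries (14.2 to 45.9), and in the other 6 such clusters present in all 8 libraries the medians ranged from 3.71 to 11.8 CPM. Single libraries overlapped, since a cluster of 1352 cells (all 8) reached 88.2 CPM in KO 1 on 8 UMIs and 73.1 CPM in KO 5+6 on 4 UMIs. Ccl2 did not stand out in that cluster, with a median of 619 CPM against 277 to 640 CPM. Over the class-by-library sums, the patterns most like that of Ccl5 were those of Bcl2a1b (r = 0.72), Il1r2 and Selplg (both 0.71).

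Ccl22 and Ccl17, neighbors on chromosome 8 (chr8:94745590-94751699 and chr8:94810453-94812036, 58753 bases apart), were rare. Ccl22 had 6 UMIs in WT and 4 in KO dendritic-like cells of batch 1, and 10 in those of batch 2, so 20 of its 25 UMIs were in this class. Of the 5 Ccl17 UMIs, 2 were in dendritic-like cells. In batch 2, 182 mature dendritic-like cells had Ccl22 at 78.8 CPM on 7 UMIs, and 412 conventional dendritic-like cells at 15.9 CPM on 3 UMIs.

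Ccr7 (chr11:99144196-99155077, minus strand) was highest in dendritic-like cells. It stood at 872 in WT and 740 CPM in KO dendritic-like cells of batch 1, at 372 and 191 CPM in B-like cells and at 100 and 55.8 CPM in T-like cells. The dendritic-like class held 73.6% of its UMIs in batch 1. In batch 2, the mature dendritic-like cells had Ccr7 at 146 CPM and Ccl5 at 236 CPM with 0 Ccr2 UMIs, whereas the conventional dendritic-like cells had Ccr7 at 10.6 CPM and Ccr2 at 95.3 CPM with 0 Ccl5 UMIs. These counts were 13, 21 and 18 UMIs for Ccr7 and Ccl5 in the mature and Ccr2 in the conventional cells. At 500 UMIs, Ccr7 was found in 23.0% of dendritic-like and 14.1% of B-like cells of batch 1 (35.5% and 19.7% unthinned), and in 0 of 510 macrophage-like cells, which allows up to 0.588%.

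Ccr2, the receptor of Ccl2 and Ccl7, lies at chr9:124101950-124113557. It was highest in monocyte-like cells, at 251 in WT and 287 CPM in KO of batch 1. In batch 2 it was 0, 67.6, 0 and 93.8 CPM in the WT and 61.3, 116, 59.0 and 159 CPM in the KO libraries, and these 8 values rest on 17 UMIs. Within batch 1, 137 monocyte-like cells (immune 1) that were high in Ly6c2 and Chil3 had Ccr2 at 325 CPM and Ccl2 at 1118 CPM. A further 40 cells (immune 9) marked by Ace and Adgre4, genes of patrolling monocytes, had Ccr2 at 74.8 CPM and no Ccl2 UMI. At 500 UMIs, Ccr2 was found in 12.1% of monocyte-like, 4.90% of macrophage-like and 4.63% of T-like cells (30.5%, 16.9% and 10.7% unthinned), and in 0 of 1072 tumor-like cells of batch 1, which allows up to 0.280%. Since macrophage-like cells were more numerous, they held 54.3% of the Ccr2 UMIs of batch 1. The nearest patterns were those of Pim1 (r = 0.79), Cd48 (0.78) and Havcr2 (0.76).

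Ccr1 lies 133257 bases from Ccr2, at chr9:123962124-123968692 on the minus strand. In batch 1 it stood at 136 and 120 CPM in WT and KO monocyte-like cells and at 97.0 and 78.2 CPM in macrophage-like cells. The Poisson intervals of macrophage-like cells (76.0 to 122 in WT, 60.6 to 99.4 in KO) overlapped. Pooled in batch 2, it had 47.4 CPM in monocyte-like cells on 9 UMIs and 20.4 CPM in macrophage-like cells on 10 UMIs. Macrophage-like cells held 74.1% of the Ccr1 UMIs of batch 1. Its nearest patterns were those of Ccl6 (r = 0.81), Lyz2 (0.80) and Clec4a3 (0.79), genes of myeloid cells.

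KO was then compared with WT on UMIs summed per library, by edgeR with batch as a covariate. The question was whether loss of Ago1 from endothelial cells went with another level of these genes. In tumor-like cells 3 of the 9 genes had enough counts to be tested, in macrophage-like cells 1 (Ccl2), in T-like cells none and in whole libraries 4. None was called at an adjusted p under 0.05. The background was the same: edgeR called 0% of 11456 genes in tumor-like cells, 0% of 1249 in macrophage-like cells, 0% of 1204 in T-like cells and 0% of 12450 in whole libraries. Without adjustment 625, 97, 97 and 1102 of these genes had p under 0.05, and DESeq2 called 1, 0, 0 and 2 genes. Without the filter on low counts, edgeR called 0 of 9 members in tumor-like cells, 0 of 8 in macrophage-like cells, 0 of 7 in T-like cells and 2 of 9 in whole libraries (Ccl5 and Ccr2), against 0.155%, 0.0618%, 0% and 0.884% of all genes tested.

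Ccl2 did not differ detectably between the groups. In tumor-like cells, edgeR put KO over WT at 0.20 ± 0.24 on the log2 scale (SE, adjusted p = 0.933), a ratio of 1.15 with a 95% interval from 0.80 to 1.65. In macrophage-like cells it was 0.07 ± 0.18 (SE, edgeR adjusted p = 0.996), a ratio of 1.05 (0.81 to 1.36). Both intervals include changes in either direction, so the tests do not show that the levels were equal. The sign in both classes turned with some settings, given at the end. Ccl7 in tumor-like cells was -0.10 ± 0.34 (SE, edgeR adjusted p = 0.975), at 1.82 to 16.9 CPM per library, where free RNA held 8.06 to 46.6 CPM.

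Ccl5 in whole libraries had the lowest p of the 8 values tested, which cover 4 of the 9 genes. In whole libraries it stood at 150 in WT and 252 CPM in KO of batch 1, at 7.7, 11.2, 6.6 and 4.0 CPM in WT 1, WT 3, WT 4 and WT 5, and at 14.0, 17.4, 9.4 and 15.3 CPM in KO 1, KO 2+3, KO 4 and KO 5+6. Within batch 2, only WT 3 lay above a KO library (KO 4), and in batch 1 KO lay above WT. The difference was 0.82 ± 0.21 on the log2 scale (SE, edgeR adjusted p = 0.450), a ratio of 1.77 (1.29 to 2.42). In tumor-like cells it was 0.72 ± 0.24 (SE, edgeR adjusted p = 0.872), a ratio of 1.64 (1.15 to 2.34). Both intervals lie above 1, yet neither difference passed the adjustment over all genes. Free RNA of batch 2 also held more Ccl5 in KO, at 30.1, 29.9, 18.6 and 30.3 CPM in KO 1, KO 2+3, KO 4 and KO 5+6, against 15.3, 18.9, 20.4 and 2.74 CPM in WT 1, WT 3, WT 4 and WT 5. Only WT 4 and WT 3 lay above a KO library (KO 4), and in batch 1 free RNA held 142 in WT and 98.8 CPM in KO. With free RNA subtracted, the difference in tumor-like cells was 1.02 on the log2 scale (edgeR adjusted p = 0.844). In batch 2 alone, the exact permutation test gave two-sided p = 0.0571 in whole libraries and 0.0857 in tumor-like cells (n = 4 per group, 0.143 for both after adjustment over the 5 comparisons). In a whole library, more cells that make Ccl5 and more Ccl5 RNA per cell cannot be told apart, and the classes moved too: T-like cells were 4.52% of cells in WT and 5.99% in KO of batch 1, and 0.47% to 1.41% in WT and 1.35% to 8.21% in KO of batch 2. The part of these shares in the difference was not tested.

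**Figure D5:**
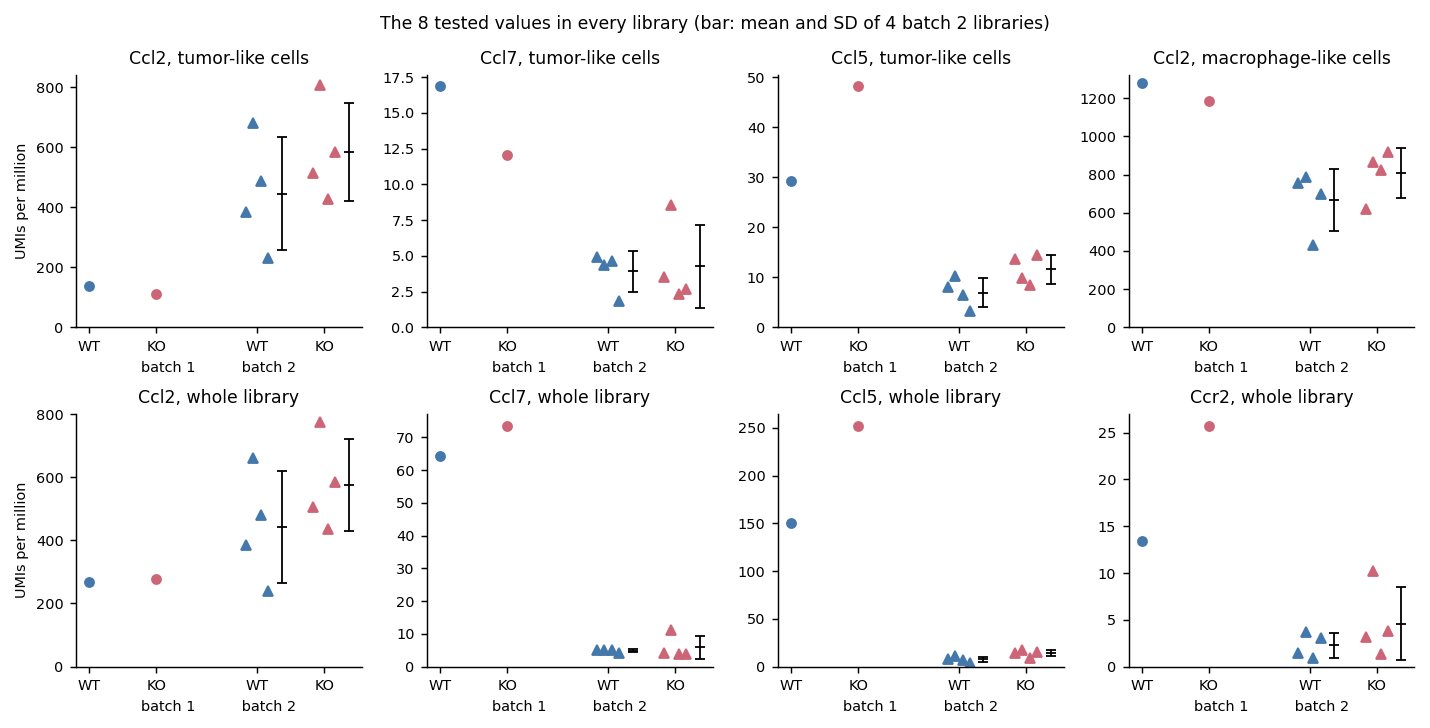
The 8 values tested by edgeR, in CPM on linear axes that start at 0, 1 point per library, with batch 1 (circles) and batch 2 (triangles) side by side and bars for the mean and SD of the 4 libraries per group of batch 2. For Ccl5 in whole libraries, KO ranges from 9.4 to 17.4 and WT from 4.0 to 11.2 CPM in batch 2.

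Ccr2 in whole libraries stood at 13.4 in WT and 25.8 CPM in KO of batch 1. In batch 2 it was 1.4, 3.7, 0.9 and 3.1 CPM in the WT and 3.2, 10.2, 1.3 and 3.8 CPM in the KO libraries. The highest value of batch 2 was that of KO 2+3, and the groups overlapped. Free RNA held Ccr2 at 12.3 to 18.2 CPM in these WT and 12.5 to 25.9 CPM in these KO libraries, highest in KO 2+3. That was above the whole-library level in every library of batch 2. In batch 1 free RNA held 4.90 in WT and 8.90 CPM in KO. The difference between KO and WT whole libraries was 0.92 ± 0.42 on the log2 scale (SE, edgeR adjusted p = 0.557), a ratio of 1.89 (1.02 to 3.50). It was 0.48 without KO 2+3. That library also had the largest shares of T-like (8.21%), macrophage-like (5.42%) and dendritic-like cells (2.67%) of batch 2, and the part of these shares was not tested. Ccl2 and Ccl7 in whole libraries were 0.24 ± 0.22 and 0.18 ± 0.25 (SE, edgeR adjusted p = 0.789 and 0.891). A test of whether the KO effect differed between batches gave edgeR adjusted p-values of 0.997 to 1 for the tested genes. The differences ran from 0.03 to 0.70 on the log2 scale, with SEs from 0.39 to 0.86. Since batch 1 held 1 library per group, the test cannot show that the batches were alike.

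Genes below the filter were compared by their values only. Over the whole class, Ccl8 in macrophage-like cells and Ccr7 in dendritic-like cells of batch 1 lay close in WT and KO. Within single macrophage-like clusters Ccl8 differed in both directions, as given above. In T-like cells of batch 2, Ccl2 stood at 50.7, 47.7, 0 and 106 CPM in the WT and 359, 116, 172 and 385 CPM in the KO libraries, on 9 and 75 UMIs. These values were picked after they had been seen and were not tested. Free RNA held Ccl2 at 129 to 253 CPM in these WT and 109 to 198 CPM in these KO libraries. Of the 84 UMIs, 63 were in 1 cluster of 524 cells (immune 4) in which Hdc, a gene of mast cells and basophils, and Gzma and Klra9, genes of natural killer cells, stood out among T-like cells. The part of that cluster and of free RNA in the difference was not tested.

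Of 24 further CC chemokine and receptor genes, 10 had at least 50 UMIs. None of the 3 tested in tumor-like cells (Ccl25, Ccr4 and Ackr4) and none of the 8 tested in whole libraries was called by edgeR, and none had an unadjusted p under 0.05. Ccl4 in whole libraries came nearest, at 0.45 ± 0.21 on the log2 scale (SE, edgeR adjusted p = 0.564). In batch 1, Ccl12, a mouse Ccr2 ligand, stood at 808 CPM in macrophage-like cells, and Ccl4, a ligand made by activated myeloid and T cells, at 969 CPM and Ccl6 at 577 CPM in monocyte-like cells. Of the partner receptors, Ccr8 had 12 UMIs in all and Ccr4 241. The Ccr7 ligands Ccl19 and Ccl21a were sparse, at 6 and 8 UMIs.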

How the data were processed

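Single-cell RNA was measured with 10x 3′ chemistry in 10 libraries, 5 WT and 5 KO. The authors deposited raw UMI counts per gene and barcode, empty droplets included, made with Cell Ranger 7.1.0 and mm10 per the submitters' processing notes. The authors' integration and cell annotation were not used.

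A barcode counted as a cell with 200 to 7000 genes and no more than 10% of its UMIs from mitochondrial genes. Actb, which differed strongly between batches, was left out of totals. All cells were clustered together on 2000 variable genes, 30 components and 15 neighbors by Leiden at resolution 1 (scanpy 1.11.5, leidenalg 0.10.2), with Actb and all CC chemokine and receptor genes kept out. Clusters with at least 3 immune markers 2-fold above the other cells and found in 2% of cells (20 CPM added before folds) were clustered again within each batch. In each batch a cluster took the class with the highest marker score, the mean of its marker levels as shares of the highest cluster's, where this was at least 25% with at least 3 markers found. It stayed unnamed where another class had 3 or more of its 10 leading genes and more than its own, where none of its own markers led and another class reached 75% of its score or its depth was very low, and where an immune cluster scored highest for another kind of cell. T-like clusters were not tried as natural killer cells. These thresholds were set after clusters and the genes' levels in them had been seen, and before WT and KO were compared. No doublet caller was run, and mixed clusters stayed unnamed.

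UMIs were summed per library and class, and classes with under 10 cells in a library were left out there. KO was tested against WT by edgeR 4.0.16 in R 4.3.3 (quasi-likelihood, TMM, filterByExpr, batch as covariate, Benjamini-Hochberg over all genes tested, threshold 0.05), after the script was tested on simulated data. Cells were not treated as replicates, and p-values measure the spread between libraries. DESeq2 1.42.0 and the alternatives in the closing section were also run. Poisson, Wilson and 3-count limits cover counting error only. Free RNA came from barcodes with at most 50 UMIs.

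The genes and lists were chosen with earlier results of these data known. All 9 genes are named, further CC family genes with at least 50 UMIs in all cells or a call, and for genes with at least 200 UMIs the 3 most similar patterns, by Pearson correlation of log2(CPM + 20) after subtraction of each library's mean, among genes with at least 500 UMIs. A further gene of the list is not reported here.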

Additional observations from a re-analysis of the deposited data

Results flagged for a closer look

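Within batch 2, each group of 4 libraries was screened for a library whose gap to its nearest neighbor was too large a part of the group's range by Dixon's 95% critical value, for 51 combinations of gene, class and group. Chance alone flags about 1 in 20 such groups, and 3 were flagged. Ccl7 in the whole library of KO 2+3 stood at 11.3 CPM (61 UMIs), against 3.87 to 4.15 CPM in the other KO libraries of batch 2. Ccl8 in the macrophage-like cells of KO 1 stood at 229 CPM on 10 UMIs from 120 cells, against 19.5 to 54.9 CPM. Ccl22 in the whole library of WT 3 stood at 0.92 CPM on 5 UMIs, against 0 to 0.143 CPM in the other WT libraries of batch 2.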

How the results depend on the processing

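No member was called in tumor-like or macrophage-like cells under any of 24 alternatives, nor in whole libraries under 20 of 21. In T-like cells members were tested only without a filter on low counts, where 0 of 7 were called. Without that filter, edgeR called 2 of 9 members in whole libraries, Ccl5 (0.78 on the log2 scale, adjusted p = 0.000711) and Ccr2 (0.89, adjusted p = 0.0355) beside 242 of 27390 genes (0.884%). In the 3 classes, at most 41, 11 and 8 genes were called under any alternative. The adjusted p of Ccl5 and Ccr2 ran up to 1 elsewhere.

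Of 180 values of single genes, 162 kept direction and side of the threshold. Ccl2 in tumor-like cells turned to -0.073 without the pooled KO libraries and -0.078 with the replicate block, with 0.016 to 0.40 when each library was left out. Ccl7 in tumor-like cells turned to 0.077 in batch 2 alone, 0.53 after free RNA was subtracted, and 0.074, 0.076, 0.029 and 0.0016 without WT of batch 1, KO of batch 1, KO 4 and KO 5+6. Ccl2 in macrophage-like cells turned to -0.028 without a batch term, -0.061 without the pooled libraries, -0.036 with the block and -0.011 at resolution 0.5. It turned to -0.024 after free RNA was subtracted. The share of free RNA was estimated from genes foreign to a class, such as tumor genes in immune cells. Their UMIs were set against those expected if the whole class were free RNA, with a cap at 100%. So 100% is a ceiling, also reached where a class held more RNA of those genes than free RNA would give. Free RNA was estimated at 100% of macrophage-like UMIs in WT 1, WT 3 and WT 4 and 73.0% in WT 5. The estimate was 93.3%, 57.6%, 45.7% and 53.6% in KO 1, KO 2+3, KO 4 and KO 5+6. In monocyte-like, dendritic-like and B-like cells it was 100% in every library of batch 2, and in fibroblast-like cells in all but KO 2+3. In T-like cells of batch 2 it was 100% in all but WT 3 (98.8%), KO 2+3 (74.5%) and KO 4 (63.15%). Ccl7 in whole libraries turned to -0.12 without the pooled libraries, -0.16 with the block and -0.14 without KO 2+3. The cause was not tested. Ccl5 kept its sign throughout, from 0.64 to 0.98 in whole libraries and 0.54 to 1.02 in tumor-like cells. Ccr2 fell to 0.36 without the pooled libraries.

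The replicate block used 6 libraries and changed no call, with 0 members called, and gave 0.65 for Ccl5 and 0.88 for Ccr2 in whole libraries. Same-numbered libraries of batch 2 did not deviate together (r between -0.30 and 0.05), and the labels do not say that numbers pair animals. The class with the highest level was kept for 7 to 9 of the 9 genes. Ccl2 moved from fibroblast-like to macrophage-like cells in batch 1, in WT alone, without KO 2+3, without KO 4 and at a minimum of 500 UMIs.

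Depth limited the comparisons. In batch 2 most members had under 30 UMIs per immune class, so most could not be tested there.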
